A study of Homo sapiens with 2 samples.

Results

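The genes described here, apart from an antisense transcript, belong to families of transporters that carry organic ions and bile acids across the cell membrane. They were chosen by name: every probe set annotated to exactly 1 gene symbol that starts with SLC22A, SLC47A, SLC10A or SLCO followed by a digit. This gave 63 of the 54675 probe sets on the array, for 37 of 19775 named genes: 11 SLCO genes, the antisense transcript SLCO4A1-AS1, 5 SLC10A genes, 18 SLC22A genes and 2 SLC47A genes. RNA came from PLC/PRF/5, an established human hepatocellular carcinoma line, and each group was 1 culture on 1 Affymetrix array. Hepatospheres, which the labels call chemoresistant to cisplatin and doxorubicin, were kept as floating spheroids under these drugs. Cisplatin is a DNA-crosslinking platinum drug and doxorubicin an anthracycline. Differentiated cells came from spheroids that were supplied with fetal bovine serum and attached to the dish. Attachment, serum and spheroid growth were thus all different, and only the hepatospheres are labelled chemoresistant. It is unsaid in the labels whether the spheroids that gave rise to the differentiated cells had met the drugs. With 1 array per group and no replicates, no difference was tested and none has an error.

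Hepatocytes take up bile acids, bilirubin and many drugs from blood through carriers in the membrane that faces the sinusoid. The SLC10A family includes the sodium-coupled bile acid carriers, the SLCO family the sodium-independent organic anion transporting polypeptides, and the SLC22A family carriers of organic cations, organic anions and carnitine. The SLC47A proteins work in the opposite direction and release organic cations into bile and urine. Several of these carriers also handle chemotherapy drugs.

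Each value is a linear MAS5 signal, which can be compared between the arrays for 1 probe set but not between probe sets. A floor was set at 84.4 signal units, the higher of the median signals of the arrays (70.8 in differentiated cells). Signals below it were treated as not measured, so a gene at or above it on 1 array only has a lower bound, written "at least". Where a pair of signals is given without a label, differentiated cells come first. Differences are hepatospheres relative to differentiated cells, and genes at least 2-fold apart were counted. Each gene was represented by 1 probe set, the one with the highest mean of its log2 signals on both arrays.

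Promoter sequence was available from RefSeq (GRCh38.p14) for 26 of the 37 genes. It is shown here for the liver-type pair SLCO1B1 and SLCO1B3, both of which read lower in hepatospheres, SLCO1B3 past 2-fold, and for SLCO4C1 and SLC22A17, which reached the floor in hepatospheres only. Each line holds the 250 bases before the gene's start, 5′ to 3′ on the gene's own strand. Capitals mark the hexamer GTTAAT on either strand, which is part of the palindrome that liver-enriched homeodomain factors bind, and every CpG dinucleotide.
SLCO1B1: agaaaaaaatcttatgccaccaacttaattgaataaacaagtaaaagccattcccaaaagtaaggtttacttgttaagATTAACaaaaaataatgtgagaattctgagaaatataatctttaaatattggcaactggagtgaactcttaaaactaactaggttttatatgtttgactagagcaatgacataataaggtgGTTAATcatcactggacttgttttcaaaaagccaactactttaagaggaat
SLCO1B3: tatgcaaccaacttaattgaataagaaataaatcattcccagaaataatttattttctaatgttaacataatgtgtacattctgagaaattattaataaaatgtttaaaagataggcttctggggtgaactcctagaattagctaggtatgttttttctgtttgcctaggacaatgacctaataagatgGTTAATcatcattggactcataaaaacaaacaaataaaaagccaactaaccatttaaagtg
SLCO4C1: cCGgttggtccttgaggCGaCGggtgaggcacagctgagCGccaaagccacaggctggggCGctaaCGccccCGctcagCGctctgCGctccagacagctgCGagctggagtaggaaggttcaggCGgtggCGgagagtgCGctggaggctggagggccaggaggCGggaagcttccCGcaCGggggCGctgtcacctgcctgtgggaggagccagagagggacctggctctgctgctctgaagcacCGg
SLC22A17: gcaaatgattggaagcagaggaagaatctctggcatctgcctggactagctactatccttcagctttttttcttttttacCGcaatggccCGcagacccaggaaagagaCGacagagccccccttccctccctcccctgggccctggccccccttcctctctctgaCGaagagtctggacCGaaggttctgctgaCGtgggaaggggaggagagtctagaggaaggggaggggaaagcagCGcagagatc

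These windows lie at chr12:21130944-21131193 (plus strand) for SLCO1B1 and chr12:20810455-20810704 (plus strand) for SLCO1B3. For SLCO4C1 the window is chr5:102296285-102296534 (minus strand), and for SLC22A17, which has 2 starts in the table, the outer one is chr14:23352888-23353137 (minus strand). The SLCO1B1 and SLCO1B3 windows resemble each other: 187 of 223 aligned bases were identical (83.9%). Both hold GTTAAT, from 51 bases before the SLCO1B1 start and from 61 bases before the SLCO1B3 start, inside the shared run tgGTTAATcatca. SLCO1B1 has a further match on the other strand, ATTAAC, from 172 bases before its start. The hexamer occurred in 6.23% of 35116 promoter windows of this length, and by gene in 7.50% of 27305 genes. Among the transporters it occurred in 5 of 26 genes, SLC10A2, SLC22A6, SLCO1A2, SLCO1B1 and SLCO1B3. The liver pair also has no CpG at all, as do 6.06% of all windows, and a GC content of 29.2% and 28.4%. Only 1.32% of windows were as GC-poor as that of SLCO1B1. The SLCO4C1 window has 18 CpGs and 69.2% GC, and the SLC22A17 window 7 CpGs and 56.8% GC, against a median of 11 CpGs and 58.0% GC over all genes. The window of the other SLC22A17 start has 16 CpGs and 68.0% GC. Sequence and direction did not go together in other members. SLC10A4, also at least 2-fold lower, has 19 CpGs, 62.0% GC and no hexamer. SLC22A7 and SLCO4A1-AS1, also at or above the floor in hepatospheres only, have 1 and 10 CpGs. A match in these letters is a description of the sequence and not evidence of a bound site.

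The antisense transcript SLCO4A1-AS1 is included in the counts of transporter genes. On its representative probe set, 20 of the 37 transporter genes reached the floor on at least 1 array, or 54.1%. This compares with 64.5% of all named genes and 68.4% of the 351 other solute carrier genes. With SLC22A16, whose other probe set reached it, the number was 21. Of the 20, 4 were at least 2-fold higher in hepatospheres: SLCO4A1, SLCO4C1, SLC22A17 and SLC22A31. At least 2-fold lower were 2, SLCO1B3 and SLC10A4, and 14 lay within 2-fold. The shares of 20.0% higher and 10.0% lower stood beside a background of 12.5% and 8.83% of 12757 measured genes, and beside 16.2% and 9.17% of 240 measured other solute carriers. With so few members these shares are close to the background. The median log2 difference was 0.18 for the transporters, 0.07 for the other solute carriers and 0.05 for all measured genes. Most transporters had low readings: ranked by mean signal and cut into 3 equal groups of genes, 14 of the 20 fell in the dimmest group and 0 in the brightest. This ranks readings and not RNA amounts, since signals of different probe sets are not comparable as amounts. In that dimmest group 16.1% of all genes were at least 2-fold higher and 6.51% lower, and 3 and 2 of the 14 transporters were.

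**Figure D1:**
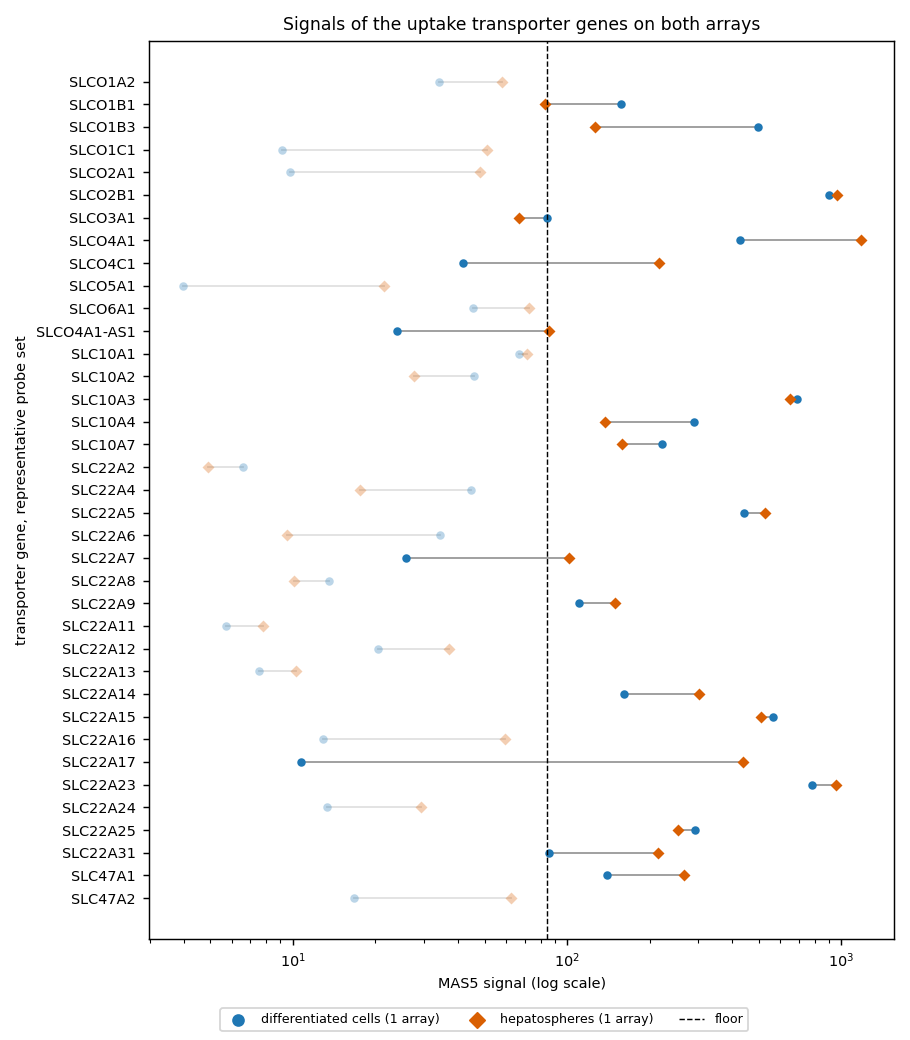
MAS5 signal of the representative probe set of each of the 37 genes in differentiated cells (circles) and hepatospheres (diamonds), 1 array each, on a log axis, with the floor of 84.4 as a dashed line. Pale genes are below the floor on both arrays; SLCO1B3 stands lower in hepatospheres, and SLCO4A1, SLCO4C1 and SLC22A17 stand higher.

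**Figure D2:**
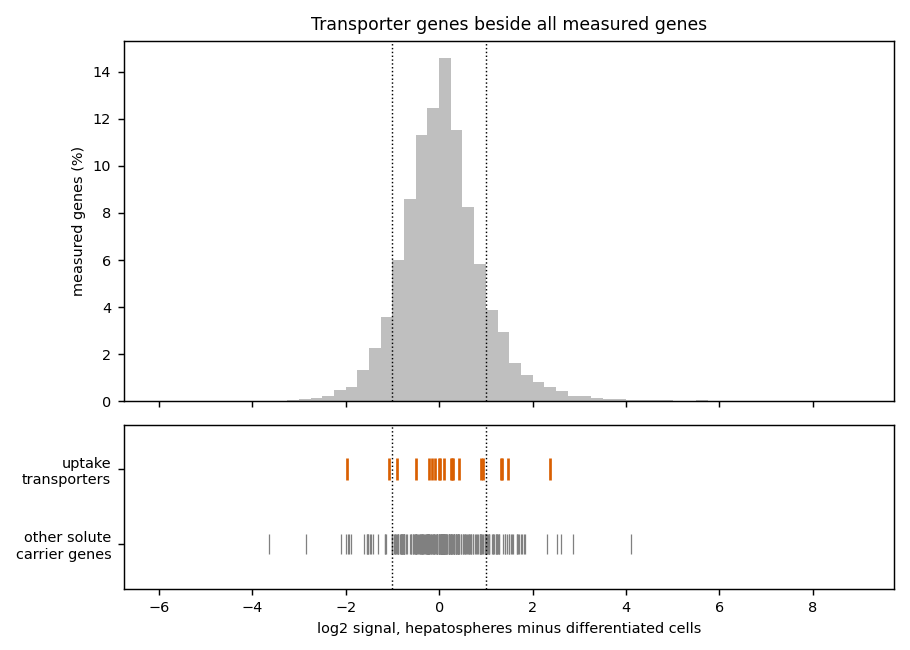
Upper panel, the percentage of 12757 measured genes by log2 difference between hepatospheres and differentiated cells. Lower panel, the same difference for each of the 20 measured genes labelled uptake transporters and the 240 measured other solute carriers. The former include SLCO4A1-AS1 and the extrusion carrier SLC47A1. Dotted lines are at 2-fold, and most transporters sit inside them, like most genes.

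The arrays themselves differed in ways that bear on these values. All 24 probe sets for the poly(A) control RNAs were brighter in hepatospheres, by a median of 2.04-fold. Scaling to them moves the median of all measured genes to -0.93 on the log2 scale. Of the 18 transporters then measured, 1, SLC22A17, was at least 2-fold higher and 7 were lower. Over all 12392 genes measured in that setting, 3.22% were higher and 46.5% lower, so the transporters moved with the bulk of genes. Centring on the medians put 4 transporters higher and 3 lower, beside 9.07% and 14.7% of all measured genes. It put the split of all genes at 38.2% higher among those 2-fold apart instead of 58.7%. Directions below are therefore relative to the bulk of genes under the deposited scaling. The ACTB 3′ to 5′ signal ratio was 1.48 in differentiated cells and 2.64 in hepatospheres, while that of GAPDH was 0.99 and 1.04; the part of RNA quality in the transporter values was not tested. Hepatocyte identity was present on both arrays: all 8 of the 10 listed hepatocyte markers that were analysed reached the floor, with albumin (ALB) at 10276 and 27887.

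Among the organic anion transporting polypeptides of liver, SLCO1B3 was at least 2-fold lower in hepatospheres, while SLCO1B1 and SLCO2B1 lay within 2-fold. SLCO1B3, a hepatocyte carrier of bile acids, bilirubin conjugates and taxanes, had a 3.94-fold lower signal, 497 in differentiated cells and 126 in hepatospheres. Its paralog SLCO1B1, the hepatocyte carrier of statins and bilirubin, read 157 in differentiated cells and 83.0, just below the floor, in hepatospheres. Its signal was thus at least 1.87-fold lower. Both genes have 1 probe set each. They are close paralogs, and cross-matching between them cannot be seen from 1 probe set per gene. For SLCO1B1 the difference rests on a dim reading: under a 60th-percentile floor it was -0.04 on the log2 scale instead of -0.90. Under median centring, quantile normalization and poly(A) scaling it passed 2-fold, at -1.15, -1.10 and -1.15. SLCO2B1, a carrier of steroid sulphates that is found in liver and gut, read 898 and 966, a ratio of 1.08. Its second probe set to reach the floor read 77.6 and 97.7. Among the liver SLCO genes, the 1B pair thus had the lower readings in hepatospheres and SLCO2B1 was nearly level.

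2 SLCO genes with little role in normal hepatocytes stood higher in hepatospheres. SLCO4A1, a broadly expressed carrier of thyroid hormones and oestrone sulphate, had a 2.76-fold higher signal, at 426 and 1175. SLCO4C1, a carrier of digoxin and thyroid hormone known from the kidney tubule, read 41.9, below the floor, and 216, at least 2.56-fold higher. Both readings come from probe sets whose names mark sequence shared between transcripts (names ending in _s_at). The other SLCO4A1 probe set read 9.12 and 14.0, and the other SLCO4C1 probe set 4.04 and 65.1, all below the floor. Averaged over its probe sets, SLCO4A1 had a log2 difference of 0.60 instead of 1.47, and SLCO4C1 had 0.49 instead of 1.35. SLCO4C1 also stood at 0.49 under the 60th-percentile floor. Of the kidney tubule markers listed, SLC34A1, LRP2 and CUBN were below the floor on both arrays, the highest of their readings being 41.8. The other one analysed, SLC5A2, read 109 in differentiated cells and 15.4 in hepatospheres. SLCO4A1-AS1, transcribed opposite SLCO4A1, read 24.0 and 85.9, barely above the floor in hepatospheres.

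The remaining SLCO genes were at or under the floor. SLCO3A1, a carrier of prostaglandins, read 84.5 in differentiated cells, level with the floor, and 66.7 in hepatospheres, and its other 3 probe sets stayed below the floor. SLCO1A2, which moves bile acids and many drugs, SLCO1C1, the thyroxine carrier of the blood-brain barrier, and SLCO2A1, the prostaglandin carrier, were below the floor on both arrays. So were SLCO5A1 and SLCO6A1. Their representative probe sets read at most 57.7, 50.9, 48.2, 21.5 and 72.6, in that order, and no order between arrays was read from values this low.

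In the bile acid family, the classic bile acid carriers were not measured above the floor. SLC10A1 (NTCP), the sodium-coupled carrier that takes up conjugated bile acids in hepatocytes and serves as the entry receptor of hepatitis B virus, read 67.1 in differentiated cells and 71.5 in hepatospheres. SLC10A2, the corresponding carrier of the ileum, read 45.6 and 27.6. The measured members were those without an established bile acid role. SLC10A4, a vesicle protein of nerve cells, read 291 and 138, a 2.11-fold lower signal. SLC10A7, linked to calcium handling and glycosylation, read 223 and 159, 1.40-fold lower, and its 2 other probe sets were below the floor. SLC10A3, a widely expressed orphan member, read 690 and 649, a ratio of 1.06. All 3 measured SLC10A genes lay on the lower side, SLC10A3 barely so, as did 47.2% of all measured genes; the median of the 3 was -0.49. SLC10A4 came to within 2-fold under the 60th-percentile floor (-0.92) and where the floor was added to each signal (-0.76 on the log2 scale).

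In the SLC22A family, 9 of 18 genes reached the floor on the representative probe set (10 on any probe set), as did 64.5% of all named genes. Of the 9, 2 were at least 2-fold higher and 0 lower, with a median of 0.30. Over all measured genes 12.5% were higher and 8.83% lower, so with 9 genes these counts are close to the background. SLC22A17, known as a receptor for the iron-siderophore carrier lipocalin 2, had the largest log2 difference of the measured transporters under the deposited scaling and the 50th-percentile floor, 2.37 as a lower bound beside -1.98 for SLCO1B3. Its signals were 10.7 and 436, at least 5.17-fold higher. Its second probe set read 9.91 and 65.0, below the floor on both arrays. Averaged over both probe sets its log2 difference was 1.0, just under 2-fold, instead of 2.37, and under the 60th-percentile floor it was 1.51. With poly(A) scaling it was 1.59, and in all 3 of these settings SLCO1B3 was further apart, at -1.98, -1.70 and -2.81. SLC22A31, an orphan member, read 85.6 and 214, a 2.50-fold higher signal. It was measured by 1 probe set whose name marks cross-matching sequence (_x_at), started at the floor, and stood at 0.48 under the 60th-percentile floor.

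On their representative probe sets, the carnitine carriers of the family were level or unmeasured. SLC22A5 (OCTN2), the main importer of carnitine, read 443 and 525, a ratio of 1.19. Its second probe set read 119 and 294, 2.47-fold higher, so the probe sets of this gene disagreed in size. SLC22A4 (OCTN1), the ergothioneine carrier that neighbours SLC22A5 on chromosome 5, was below the floor at 44.6 and 17.5. SLC22A16, a carnitine carrier that also imports doxorubicin, read 12.9 and 59.1 on its representative probe set, below the floor on both arrays. Its other probe set, with an _s_at name, read 6.41 in differentiated cells and 114 in hepatospheres, at least 1.35-fold higher. SLC22A2, the cation carrier that takes cisplatin into kidney cells, was near the bottom of the scale on both arrays, at 6.60 and 4.89.

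Organic anion carriers of the family were mostly unmeasured. SLC22A7 (OAT2), a liver carrier, read 25.7 and 102, at least 1.21-fold higher. This bound depends on the floor, and at the 40th percentile it was 1.03 on the log2 scale. The probe set has an _s_at name and the 4 others of SLC22A7 were below the floor, so without such probe sets the gene was not measured. SLC22A9 (OAT7), a sulphate conjugate carrier of liver, read 111 and 150, a ratio of 1.35. The renal carriers SLC22A6 (OAT1), SLC22A8 (OAT3), SLC22A11 (OAT4) and SLC22A12 (URAT1, the urate carrier), as well as SLC22A13 and SLC22A24, were below the floor on both arrays. Together with SLC22A2, SLC22A4 and SLC22A16 they make up the 9 SLC22A genes whose representative probe set was below the floor.

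The other measured SLC22A members lay within 2-fold. SLC22A14, known from testis, read 161 and 302, 1.87-fold higher. SLC22A15 read 563 and 510, a ratio of 1.10, and SLC22A25 read 293 and 253, a ratio of 1.16. SLC22A23 read 782 and 960, a ratio of 1.23. Its 3 other probe sets, each at the floor on 1 array or both, read 53.3 and 117, 88.0 and 64.3, and 85.7 and 128, so they did not all go one way.

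Of the extrusion carriers, SLC47A1 (MATE1), which releases organic cations from liver and kidney cells, read 140 and 268, a 1.91-fold higher signal just inside 2-fold. SLC47A2 (MATE2), its kidney relative, was below the floor at 16.7 and 62.7. With scaling to the poly(A) controls SLC47A1 stood at -0.10 and SLC22A14 at -0.13 on the log2 scale, so both are level on that scale.

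**Figure D3:**
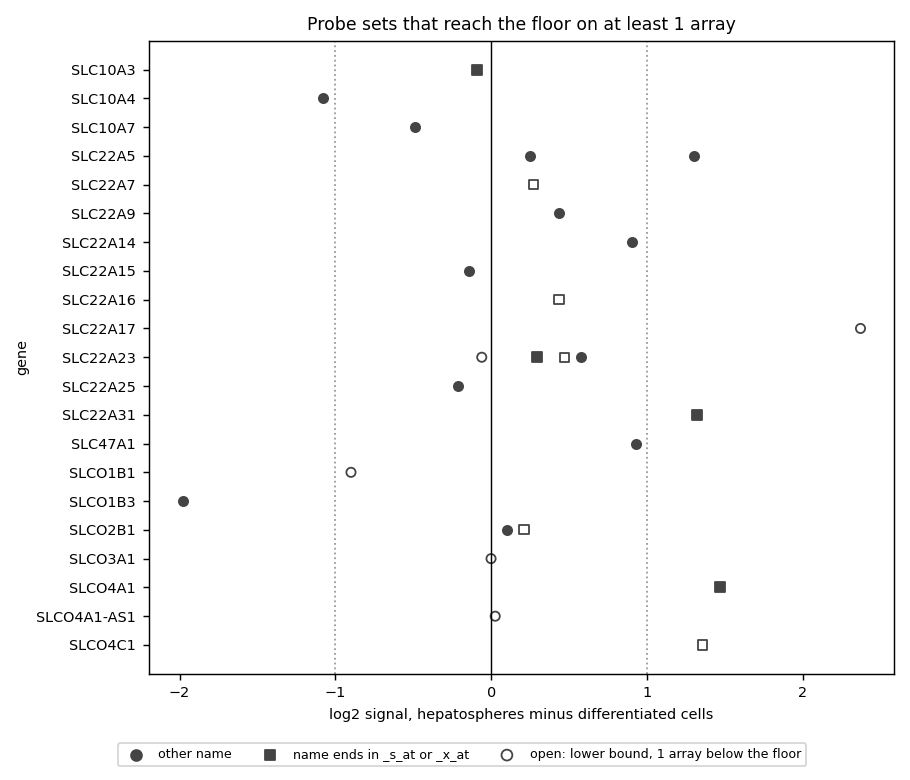
Log2 difference (hepatospheres minus differentiated cells) of each of the 26 transporter probe sets that reached the floor on at least 1 array, by gene. Open symbols are lower bounds, squares mark shared-sequence names and dotted lines mark 2-fold; the SLC22A5 probe sets stand apart from each other, at 0.25 and 1.30.

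Of the 63 transporter probe sets, 26 reached the floor, and 5 of them were at least 2-fold higher and 2 lower. Among all named probe sets that reached the floor the corresponding shares were 11.6% and 9.59%. Only 3 genes, SLC22A5, SLC22A23 and SLCO2B1, had more than 1 probe set at the floor, so for the other measured genes the value rests on 1 probe set. Without the _s_at and _x_at probe sets 15 genes were measured, 1 of them at least 2-fold higher (SLC22A17) and 2 lower (SLC10A4 and SLCO1B3). In that setting 12.7% of all measured genes were higher and 9.57% lower. SLC10A4 and SLCO1B3 have 1 probe set each and SLC22A17 has 2, none with such a name. Leaving out the shared names could therefore not change their values. SLCO4A1, SLCO4C1 and SLC22A31 had no other probe set at the floor.

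Many of these genes lie side by side in RefSeq's gene order, where members with at most 1 other protein-coding gene between them were taken as neighbours. SLCO1C1, SLCO1B3, SLCO1B1 and SLCO1A2 form 1 such run on chromosome 12. Its middle members, SLCO1B3 and SLCO1B1, both read lower in hepatospheres (SLCO1B1 within 2-fold), and its outer members were below the floor. On chromosome 11, SLC22A25 and SLC22A9 were measured, at ratios of 1.16 (lower) and 1.35 (higher), while SLC22A6, SLC22A8 and SLC22A24 of the same run were not. In the pairs SLC22A13 and SLC22A14, SLC22A4 and SLC22A5, SLC47A1 and SLC47A2, and SLCO4C1 and SLCO6A1, 1 member was measured and the other was not, and of SLC22A11 and SLC22A12 neither was.

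Genes that act with the transporters were taken from 5 lists. Of 38 measured partner genes, 8 were at least 2-fold higher (21.1%) and 5 lower (13.2%), against the same background of 12.5% and 8.83%. Bile acid synthesis and conjugation had 0 of 9 measured genes higher and 2 lower, with a median of 0.13. BAAT, which joins bile acids to glycine or taurine, read 878 and 138, a 6.37-fold lower signal. ACOX2, which shortens the bile acid side chain in peroxisomes, read 4279 and 1044, 4.10-fold lower. SLC27A5, the ligase that activates bile acids before BAAT acts, went the other way but stayed within 2-fold, at 1716 and 3394. AKR1C4, a reductase of the pathway, was 1.59-fold lower. CYP7A1, the rate-limiting enzyme of the classic pathway, was below the floor at 2.15 and 4.0.

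Export carriers were split, with 3 of 9 measured genes at least 2-fold higher, 1 lower and a median of 0.45. Of all measured genes 12.5% were higher and 8.83% lower. The drug pumps ABCB1 and ABCG2 were 15.1-fold and 2.88-fold higher, and ABCB4, the phospholipid floppase of bile, was at least 3.03-fold higher. SLC51B, a subunit of the basolateral bile acid exporter, read 6888 and 3061, 2.25-fold lower, while its partner subunit SLC51A read 5.43 and 83.6, below the floor on both arrays. ABCB11, the bile salt export pump of the canalicular membrane, was below the floor at 15.7 and 2.50.

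Regulators had 3 of 9 measured genes higher and 1 lower, with a median of 0.56, beside 12.5% and 8.83% of all measured genes. NR5A2 (LRH-1), an activator of bile acid synthesis genes, read 541 and 136, a 3.97-fold lower signal. NR0B2 (SHP), the repressor that bile acids induce, read 157 and 343, 2.18-fold higher. PPARA, the fatty acid receptor, and AHR, the dioxin receptor, were 3.22-fold and 2.70-fold higher. FGF19, the hormone that restrains bile acid synthesis, was below the floor at 54.8 and 21.5.

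The PDZ scaffolds, which anchor several of these carriers in the membrane, had 2 of 5 genes measured and a median of -0.68. PDZK1 read 2937 and 1479, 1.99-fold lower, and NHERF1 read 5215 and 4044, 1.29-fold lower. Genes that make carnitine or use it in the carnitine cycle had 2 of 9 higher and 1 lower, with a median of -0.31. The shares over all measured genes were 12.5% and 8.83%. CPT1C, the neuronal form of carnitine palmitoyltransferase 1, read 88.5 and 901, 10.2-fold higher. CRAT, carnitine acetyltransferase, was 2.45-fold higher. CPT1A, the liver form of the palmitoyltransferase, was 2.17-fold lower, and SLC25A20, the carnitine carrier of mitochondria, 1.93-fold higher.

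**Figure D4:**
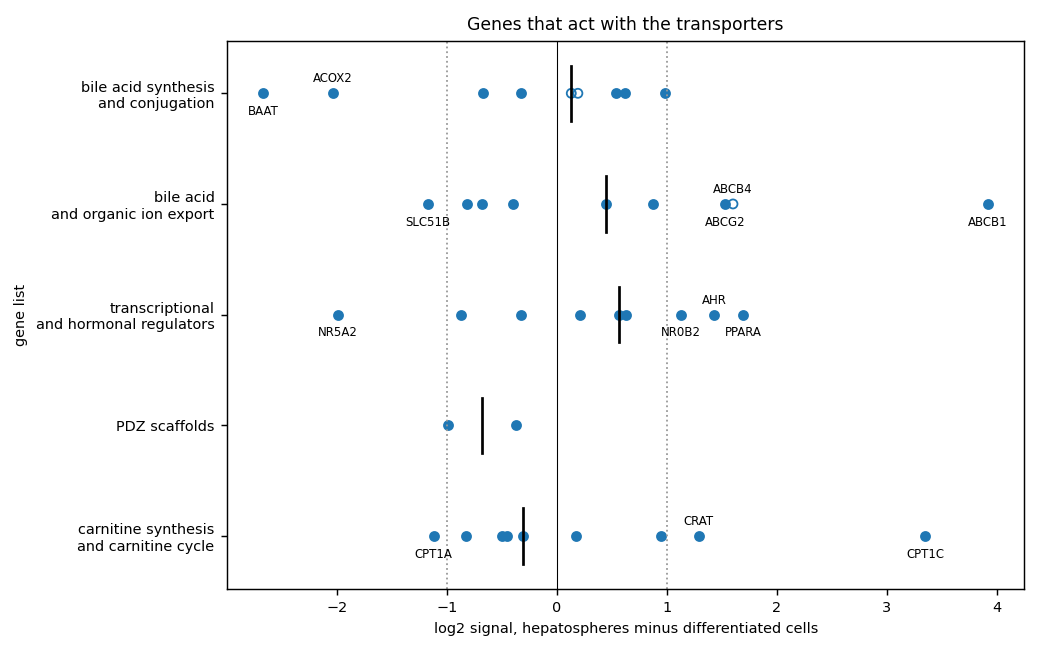
Log2 difference (hepatospheres minus differentiated cells) of each measured gene in the 5 lists of genes that act with the transporters; open circles are lower bounds, black bars are list medians, dotted lines mark 2-fold, and genes past them are named. BAAT and ACOX2 stand lowest, at -2.67 and -2.04, and ABCB1 highest, at 3.92.

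Markers of other cell types were set beside these values. Of 5 fibroblast and stellate cell markers, 4 were measured, and all 4 lay on the higher side, as did 52.7% of all measured genes. In hepatospheres 2 of the 4, LUM and COL3A1, passed 2-fold on that side, as did 12.5% of all measured genes. COL1A1 (290 and 471) and DCN (76.2 and 139) stayed within 2-fold. LUM, COL3A1 and DCN were below the floor in differentiated cells, so their differences are lower bounds. Summed signals over all 5 were 421 and 4032, most of the latter from LUM. LUM read 1.14 and 2677, COL3A1 42.6 and 679, and the defining receptor gene PDGFRB was below the floor at 11.1 and 66.9. Leukocyte markers PTPRC, CD3E and CD14 and endothelial markers VWF, CDH5 and KDR were below the floor on both arrays. LYZ read 6364 and 10454, and PECAM1 3388 and 3787. Both samples came from an established tumour line, so these readings describe expression and do not count cells of other types. In bulk samples, a changed share of expressing cells cannot be told apart from changed RNA per cell. The part of stromal-type expression in the transporter values was not tested.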

How the data were processed

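Groups were taken from the source names. The authors deposited intensities, as MAS5 signals of single probe sets, per the submitters' processing notes. The MAS5 version and the target of its scaling are not stated there. The 2% trimmed mean was 500.1 on both arrays. No detection calls were used. Precision is limited by the number of arrays.

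Gene names came from the GEO platform annotation, which paired 41091 of 54675 probe sets with 1 symbol once 62 control probe sets were left out. All 37 member genes matched a RefSeq gene table of GRCh38.p14 by gene identifier, which was used for gene order only, since the array's annotation names no build. The floor, at the 50th percentile, was taken over all probe sets, controls included. Log2 was taken after low signals were set to it.

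Every member gene with a probe set at the floor was named, with SLC10A1 as a textbook liver carrier, and from each partner list up to 4 measured genes with the largest differences plus CYP7A1, BAAT, ABCB11, NR0B2 and FGF19. Other members below the floor and the marker genes given by value were named after their values were seen. Members and lists were chosen with earlier results of these data known. SLCO1B1 and SLCO1B3 promoter windows were aligned globally (match 1, mismatch -1, gap opening -2, extension -0.5), chosen with the values known. The counting procedure was tested on simulated data, with changes set only into genes of bright signal in differentiated cells. That test does not cover genes near the floor, where many of the transporters lie. Alternatives were median centring, quantile normalization, poly(A) scaling, other floors (40th and 60th percentile, none, added to the signal), the mean over probe sets, and leaving out _s_at and _x_at probe sets. Python 3.11.15, numpy 2.4.6, pandas 2.3.3, Biopython 1.88 and matplotlib 3.10.9 were used.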

Additional observations from a re-analysis of the deposited data

How the results depend on the processing

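Without a floor all 37 transporter genes counted as measured, with 12 at least 2-fold higher and 4 lower, and 9 partner genes lower. Over all 19775 named genes in that setting, 21.4% were higher and 12.3% lower. Scaling to the poly(A) controls gave 1 higher and 7 lower transporters, a median of -0.76, and 2 higher and 18 lower partner genes, where the deposited scaling gave 4, 2, 0.18, 8 and 5. With poly(A) scaling 3.22% of all measured genes were higher and 46.5% lower. The floor at the 60th percentile left 2 transporters higher and 1 lower, and adding the floor to each signal left 1 lower. Under the former 11.4% of all measured genes were higher and 9.13% lower, and under the latter 7.05% were lower. The mean over probe sets and leaving out _s_at and _x_at probe sets each left 1 higher, SLC22A31 in the former and SLC22A17 in the latter. Of all measured genes 11.4% and 12.7% were higher in these settings. Median centring gave 9 lower partner genes, with 14.7% of all measured genes lower. Counts of these kinds stayed within 1.5 times of the reported ones in the remaining settings run, and no transporter at least 2-fold apart turned its direction in the settings that still measured it. SLCO1B3 was at least 2-fold lower in all 9 alternatives. No paired analysis was possible because each group has 1 array. Signals near the floor limit every dim transporter, and no depth or detection measure was used.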

Other observations

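LCN2, which encodes lipocalin 2, was looked up after the values of its reported receptor gene SLC22A17 had been seen. It read 65.7, below the floor, in differentiated cells and 151 in hepatospheres, at least 1.79-fold higher. SLC22A17 read 10.7 and 436 on the same arrays. Both genes were thus at or above the floor in hepatospheres only, as were 1263 of the 12757 measured genes. The liver-type carrier SLCO1B3 was 3.94-fold lower in hepatospheres and SLCO1B1 at least 1.87-fold, while ALB, APOA2 and TTR, secreted products of hepatocytes, were 2.71-fold, 5.07-fold and 5.62-fold higher. The other 5 hepatocyte markers stayed within 2-fold: APOB, FGB, SERPINA1 and TF were 1.10-fold, 1.48-fold, 1.62-fold and 1.83-fold higher and APOA1 1.17-fold lower. Hepatocyte-linked genes therefore did not all lie on one side.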
